A study of Sus scrofa with 32 samples.

Results

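The genes described here are 10 pig genes listed as responding to pregnancy in each of 4 endometrial compartments, out of 30185 genes counted in the series: FAM53B, SLC46A3, MOCS1, PIK3IP1, RNF152, ZDBF2, ATG2A, COQ8A, EFHD1 and SCIN. Their symbols were matched to NCBI gene IDs of Sscrofa11.1, and all 10 were found and were detectable, that is, kept in the authors' filtered table, in 4 kinds of captured tissue: the luminal epithelium (LE), the glands (GE, glandular epithelium), the vessels (BV) and the stroma (S). They belong to 9727 genes detectable in all 4 compartments. They were selected on their measured fold change between pregnant and cyclic gilts in the 4 compartments, so every such fold change below, and every count of them past a test's limit, is a description that supports nothing by itself, and no p-value is given for it. Their level in one compartment against another, their position, their neighbouring sequence and the other genes of their pathways were not part of that choice.

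On Day 14 the elongated pig conceptus begins to attach to the luminal epithelium, while glands, stroma and vessels of the endometrium receive its secreted signals. Several of the listed genes encode proteins of pathways that link nutrients to growth. PI3K and mTORC1 signalling drives protein synthesis and restrains autophagy, the delivery of cytoplasm to lysosomes, and it is switched on at the lysosome surface when amino acids are plentiful. RNF152 is a lysosomal ubiquitin ligase that acts on RagA and restrains mTORC1, PIK3IP1 is a membrane protein that inhibits PI3K, ATG2A transfers lipid to the growing autophagosome and SLC46A3 is a transporter of the lysosomal membrane. MOCS1 catalyses the first step of molybdenum cofactor synthesis, and COQ8A is an atypical kinase of coenzyme Q synthesis in mitochondria. EFHD1 is a calcium-binding protein of mitochondria, and SCIN (scinderin) severs actin filaments when calcium rises. FAM53B takes part in the nuclear import of beta-catenin, and ZDBF2 is an imprinted gene read from the paternal copy.

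The samples came from gilts (young female pigs) on Day 14, 4 cyclic (C128, C40, C42 and C78) and 4 pregnant (P139, P39, P41 and P43), with 1 library of each compartment from a gilt. All gilts were synchronized with eCG and hCG, the pregnant ones were inseminated with semen of a single boar and the cyclic ones with the supernatant of semen, so both groups carried the hormones and the seminal fluid. Tissue was cut by laser capture microdissection from stained frozen sections, and picogram amounts of RNA were amplified. The GE library of pregnant gilt P41 is labelled as deleted from the processed data, which leaves 3 pregnant GE libraries, 4 in every other group and 31 in all. In pregnant gilts the tissue was taken at the hyperemic zones where embryos attach, which are a feature of pregnancy, so sampling site and pregnancy cannot be told apart. Complete endometrial tissue was not analysed here. In such captured material fewer cells of a type and less RNA per cell cannot be told apart.

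Libraries held between 2415216 and 7081556 counts on genes. Expression is given as CPM, a count relative to the TMM-scaled size of its library within a compartment, unless a joint normalization of all 31 libraries is named. Marker genes were compared on the joint scale. There the summed CPM of 12 epithelial markers lay between 3111 and 3882 in LE and between 1977 and 2975 in GE, against 15.4 to 518 in BV and 15.1 to 669 in S. Smooth muscle markers (8 genes) summed to 1780 to 20871 CPM in BV and 961 to 1942 CPM in S. Fibroblast markers (7 genes, collagens among them) were not absent from the captured epithelium: they summed to 4215 to 17210 CPM in LE and 3062 to 7845 CPM in GE, above the epithelial markers, and to 26329 CPM or more in BV and S. Pregnant gilt P139 and cyclic gilt C78 stood apart from their groups at several of the 10 genes. Of 310 values of these genes, 21 received a weight below 0.5 in the robust fit described next, 10 of them from gilt C78 and 5 from gilt P139, and the fold changes concerned are also given without those libraries.

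Pregnant and cyclic libraries were compared in edgeR in each compartment. The quasi-likelihood test was read at a false discovery rate of 1% for LE. The largest raw p that this called, 3.28e-04, was the limit for the other 3 compartments. The robust GLM, the kind of test that the study used and that gives outlying libraries little weight, was run beside it with its own limit of 0.00114. Relative to cyclic gilts, all 10 genes had a positive fitted log2 fold change in LE, GE and S, and 8 of 10 in BV, where EFHD1 and SCIN were negative. Of the 10 genes, the quasi-likelihood test called 4 as higher in pregnancy in LE (FAM53B, SLC46A3, RNF152 and SCIN), where it called 2.02% of all genes higher. It called 2 in GE (MOCS1 and PIK3IP1, with 0.512% of all genes), 3 in BV (MOCS1, RNF152 and ATG2A, with 1.3%) and 0 in S (with 0.184%). In S 7 of 10 had a raw p under 0.05, in a contrast on which the genes were selected. The share of all genes at that raw p was not computed, for this count or for those of the marker and pathway lists below. Most of the quasi-likelihood calls were lost in some fits with 1 library left out. Over all genes and in either direction, such fits called 221 to 422 in LE, against 398 with all libraries. They called 38 to 110 in GE, against 89, 77 to 231 in BV, against 206, and 12 to 52 in S, against 35. FAM53B in LE and RNF152 and ATG2A in BV were called in 1 of 8 such fits, MOCS1 and PIK3IP1 in GE in 2 and 3 of 7, and SLC46A3 and SCIN in LE in 7 of 8, while RNF152 in LE and MOCS1 in BV were called in 8 of 8. No listed gene was called in all 4 compartments by this test, which called 1 gene of the 9727 in all 4. The robust GLM called all 10 in every compartment, EFHD1 and SCIN as lower in BV, and 30 genes in all 4 compartments. The genes were listed from this kind of test, so these calls follow from the choice and are no result. Of all genes it called 6.98%, 4.19%, 5.73% and 1.96% higher in LE, GE, BV and S, and 5.23% lower in BV. DESeq2 called 9, 7, 3 and 7 of the genes in LE, GE, BV and S, all higher, where it called 6.46%, 3.74%, 4.73% and 1.38% of all genes higher.

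The groups did not overlap, with every pregnant library above every cyclic one, for 6 of 10 genes in S, 5 in BV, 8 in GE and 9 in LE. Over all genes this held for 3.85%, 8.99%, 11% and 10.3%. The median log2 fold change of the 10 genes was highest in LE (2.004), followed by GE (1.57), S (1.18) and BV (0.95), while the median of all genes lay between -0.01 and 0.00. Markers of some other cell types also had positive estimates in LE and GE, and those of others did not. Of the smooth muscle markers 1 of 5 was positive in LE (median -0.63) and 1 of 4 in GE (median -0.48). Of the fibroblast markers 6 of 7 were positive in LE (median 0.28) and 3 of 7 in GE (median -0.05). All 8 detectable endothelial markers had a positive log2 fold change in LE (median 0.81) and 5 of 5 in GE (median 1.07), with 0 called by edgeR's quasi-likelihood test and 2 and 1 at a raw p under 0.05. Their sum ranged from 141 to 763 CPM in cyclic and 455 to 1123 CPM in pregnant LE, and from 18.03 to 50.97 CPM in cyclic and 21.1 to 204 CPM in pregnant GE. Of the leukocyte markers 3 of 3 detectable ones were positive in GE (median 1.28), with 0 called by that test and 2 at a raw p under 0.05. CD79A, not detectable in GE, was at 0 in 3 of 4 cyclic and 2 of 3 pregnant GE libraries. The part of these other cell types in the LE and GE values was not tested. The largest of the 4 fold changes of a gene was in LE for 7 genes, in GE for PIK3IP1 and COQ8A and in BV for MOCS1.

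**Figure D1:**
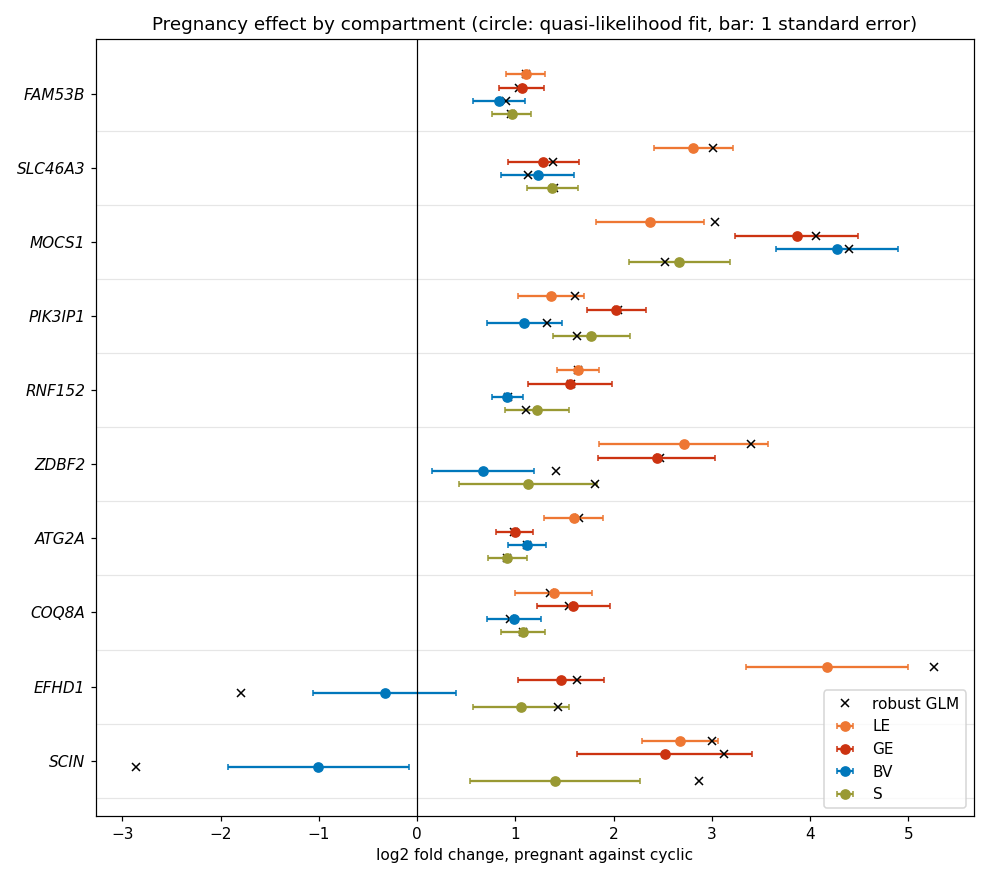
Log2 fold change of pregnant against cyclic gilts (x axis) for each of the 10 genes (y axis) in LE, GE, BV and S. Circles with bars are the quasi-likelihood estimate ± 1 standard error and crosses the robust GLM estimate. All estimates lie above 0 except EFHD1 and SCIN in BV, where the circles are at -0.33 and -1.01 and the crosses at -1.79 and -2.86.

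RNF152, the lysosomal ligase, was called in LE and BV, and of the 4 compartments its level was highest in LE. In LE its values were 343, 275, 243 and 399 CPM in cyclic gilts C128, C40, C42 and C78 and 964, 1157, 771 and 1025 CPM in pregnant gilts P139, P39, P41 and P43. The lowest pregnant library was well above the highest cyclic one, and the fitted log2 fold change was 1.64 (SE 0.21). In GE, where the gene was low, cyclic gilts had 3.21, 6.98, 6.87 and 11.0 CPM and pregnant gilts P139, P39 and P43 had 11.9, 26.6 and 23.7 CPM, a log2 fold change of 1.56 (SE 0.43). In BV the pregnant libraries were close together at 57.1, 49.9, 52.4 and 51.2 CPM, all above the cyclic ones at 26.2, 29.1, 22.1 and 34.2 CPM. The log2 fold change there was 0.92 (SE 0.16). In S the cyclic values were 44.2, 36.6, 52.6 and 53.3 CPM and the pregnant ones 181, 52.8, 102 and 98.7 CPM, so the groups overlapped at gilt P39 and the log2 fold change was 1.22 (SE 0.32), or 0.86 without gilt P139.

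SLC46A3, the lysosomal transporter, had its largest fold change in LE. Cyclic LE had 14.3, 10.9, 18.02 and 34.0 CPM and pregnant LE 188, 112, 80.7 and 163 CPM, with no overlap and a log2 fold change of 2.81 (SE 0.40), or 3.24 without gilt C78. In the other compartments its log2 fold changes were 1.29 (SE 0.36) in GE, 1.23 (SE 0.37) in BV and 1.37 (SE 0.26) in S. The GE groups overlapped, since pregnant gilt P39 had 34.7 CPM against 37.7 CPM in cyclic gilt C78. In BV pregnant gilt P43 had 78.6 CPM and the other 3 pregnant gilts 31.8 to 36.3 CPM, just above the highest cyclic value of 31.4 CPM. Without gilt P43 the BV log2 fold change was 0.83.

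PIK3IP1, the PI3K inhibitor, had its largest fold change in GE. Its GE values were 29.1, 64.8, 49.8 and 40.5 CPM in cyclic gilts and 198, 235 and 130 CPM in pregnant gilts P139, P39 and P43, a log2 fold change of 2.03 (SE 0.30) with no overlap. The fold change was 1.36 (SE 0.33) in LE, 1.09 (SE 0.38) in BV and 1.77 (SE 0.39) in S on the log2 scale. Without gilt C78 the LE value was 1.796, and without gilt P139 the S value was 1.377. In BV cyclic gilt C78 had 45.2 CPM, above 36.3 and 43.4 CPM in pregnant gilts P41 and P43, and without gilt C78 the log2 fold change was 1.54.

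ATG2A, the autophagy lipid transfer protein, was separated between the groups in all 4 compartments. In LE it had 21.1, 15.6, 21.4 and 36.0 CPM in cyclic gilts and 101, 62.4, 50.1 and 71.3 CPM in pregnant gilts, a log2 fold change of 1.59 (SE 0.30). The log2 fold changes of 0.99 (SE 0.19) in GE, 1.12 (SE 0.19) in BV and 0.92 (SE 0.19) in S were smaller. In BV cyclic libraries lay between 11.07 and 16.7 CPM and pregnant ones between 26.4 and 37.7 CPM.

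MOCS1, which starts molybdenum cofactor synthesis, had its highest level in pregnant GE and its largest fold change in BV. In GE cyclic gilts had 12.1, 24.2, 59.6 and 96.0 CPM, a spread of several fold, whereas the 3 pregnant gilts had 668, 710 and 718 CPM. The log2 fold change was 3.86 (SE 0.63) in GE, or 4.44 without gilt C78. In BV it had 2.88, 3.11, 1.35 and 3.67 CPM in cyclic and 85.2, 60.8, 9.89 and 55.5 CPM in pregnant gilts, a log2 fold change of 4.27 (SE 0.62), with gilt P41 as the lowest pregnant library and still above every cyclic one. The cyclic BV level rested on 34 counts over 4 libraries. In LE cyclic gilt C78 had 127.8 CPM and the other 3 cyclic gilts 22.2 to 35.4 CPM, against 189 to 357 CPM in pregnancy. The LE log2 fold change was 2.37 (SE 0.55), or 3.26 without gilt C78. In S all cyclic libraries were near 5 CPM (4.40 to 5.40) and pregnant ones at 35.3, 8.55, 22.6 and 62.0 CPM, a log2 fold change of 2.67 (SE 0.51), or 2.16 without gilt P43.

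COQ8A, of coenzyme Q synthesis, was separated between the groups in all 4 compartments, with a log2 fold change of 1.39 (SE 0.39) for LE, 1.59 (SE 0.37) for GE, 0.98 (SE 0.28) for BV and 1.08 (SE 0.22) for S. In LE the separation was narrow: the highest cyclic value was 11.5 CPM and the lowest pregnant value 11.6 CPM. In GE the ranges were 8.71 to 27.5 CPM and 44.7 to 79.5 CPM.

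FAM53B, the beta-catenin import factor, had the smallest range of fold changes of the 10 genes. On the log2 scale LE had 1.11 (SE 0.20), GE 1.06 (SE 0.23), BV 0.83 (SE 0.26) and S 0.96 (SE 0.20). In LE it was measured at 25.9, 29.8, 28.9 and 17.02 CPM in cyclic gilts and 61.0, 49.3, 54.5 and 53.7 CPM in pregnant gilts. The groups overlapped in BV only, at pregnant gilt P139 with 31.8 CPM against 41.98 CPM in cyclic gilt C78.

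ZDBF2, the imprinted gene, varied widely among gilts of one group. In LE cyclic gilts had 1.06, 0.217, 0.858 and 5.99 CPM and pregnant gilts 28.9, 12.9, 4.98 and 7.81 CPM, so cyclic gilt C78 was above pregnant gilt P41. The log2 fold change was 2.71 (SE 0.86) in LE and 2.44 (SE 0.59) in GE, where the groups did not overlap. The LE value was 4.25 without cyclic gilt C78 and 2.03 without pregnant gilt P139. In BV cyclic gilt C78 had 79.1 CPM, above all pregnant libraries (37.5 to 62.2 CPM), and the other 3 cyclic gilts had 14.1 to 20.0 CPM. The BV log2 fold change was 0.67 (SE 0.52) with gilt C78 and 1.61 without it. In S it was 1.13 (SE 0.70), with cyclic values of 12.0, 39.1, 104 and 10.9 CPM and pregnant values of 34.0, 137, 91.2 and 94.6 CPM, and 2.15 without cyclic gilt C42.

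**Figure D2:**
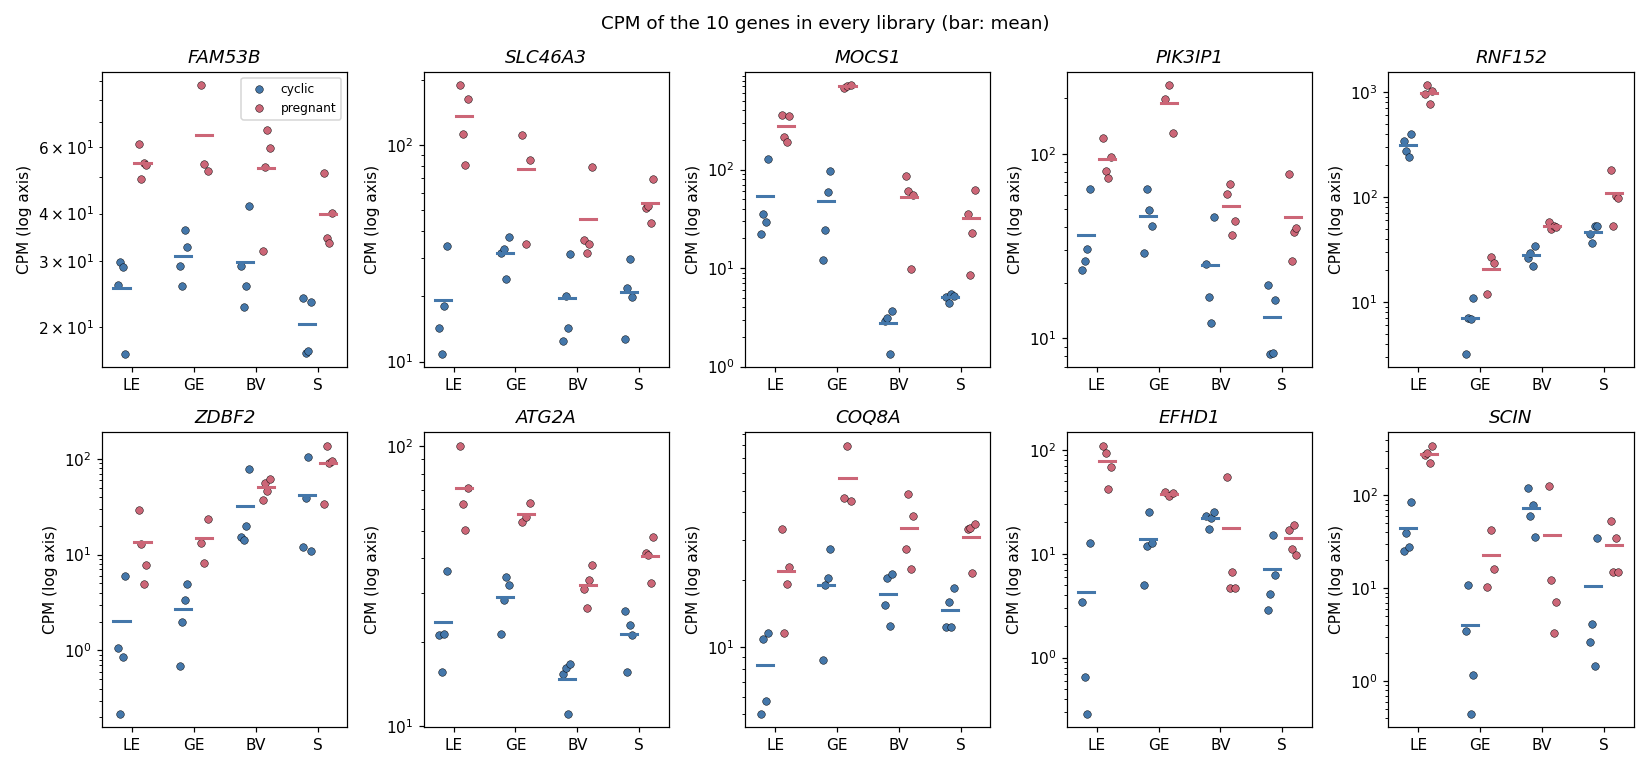
CPM of each of the 10 genes (y axes, log scale, normalized within a compartment) in every library of LE, GE, BV and S (x axes), cyclic in blue and pregnant in red, with bars at the group means. All 4 pregnant LE libraries lie above all cyclic ones except for ZDBF2, and in BV 3 of 4 pregnant libraries lie below the cyclic ones for EFHD1 and SCIN.

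EFHD1, the mitochondrial calcium-binding protein, had the largest fold change of the 10 genes in LE. Cyclic LE had 3.43, 0.652, 0.286 and 12.7 CPM in gilts C128, C40, C42 and C78, and pregnant LE had 110, 92.7, 41.97 and 68.6 CPM in gilts P139, P39, P41 and P43. The groups were far apart, with a log2 fold change of 4.17 (SE 0.83), or 5.73 without gilt C78. In GE the log2 fold change was 1.47 (SE 0.43), or 1.96 without gilt C42, with pregnant libraries between 36.1 and 39.2 CPM and cyclic ones between 5.04 and 25.3 CPM. In S it was 1.06 (SE 0.49) and the groups overlapped at cyclic gilt C42 (15.1 CPM), without which it was 1.69. In BV the values were 23.0, 17.3, 22.1 and 25.3 CPM in cyclic gilts and 54.6, 4.70, 6.59 and 4.62 CPM in pregnant gilts P139, P39, P41 and P43. Pregnant gilts P39, P41 and P43 were below all cyclic gilts and pregnant gilt P139 above all of them.

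SCIN, the actin-severing protein, was also high in gilt P139 and low in the other pregnant gilts in BV. Its BV values were 121, 59.4, 78.8 and 35.5 CPM in cyclic gilts and 126, 12.3, 3.30 and 7.11 CPM in pregnant gilts P139, P39, P41 and P43. Again 3 pregnant libraries were below the cyclic range and that of gilt P139 was above it. In LE it had 25.1, 39.3, 27.7 and 84.4 CPM in cyclic and 275, 290, 222 and 345 CPM in pregnant gilts, without overlap and with a log2 fold change of 2.68 (SE 0.39), or 3.20 without gilt C78. In GE, where it was low, the log2 fold change was 2.52 (SE 0.89) and pregnant gilt P139 (10.4 CPM) lay below cyclic gilt C40 (11.0 CPM). The GE value was 3.74 without gilt C40 and 1.73 without pregnant gilt P39. In S cyclic gilt C78 had 34.5 CPM and the other cyclic gilts 1.44 to 4.13 CPM, against 53.1, 14.9, 34.8 and 14.8 CPM in pregnancy. The S log2 fold change was 1.40 (SE 0.87) with gilt C78 and 3.39 without it, and 0.94 without gilt P139.

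The size of the negative BV estimates of EFHD1 and SCIN depended on pregnant gilt P139. With all 8 libraries the quasi-likelihood log2 fold changes were -0.33 (SE 0.73) for EFHD1 and -1.01 (SE 0.92) for SCIN, neither of them called. Without gilt P139 they were -2.03 (SE 0.25) and -3.28 (SE 0.51) in the 7 remaining libraries. These values were obtained by leaving out the library that differed and are a description of it, not a test. The robust GLM gave -1.79 and -2.86 with weights of 0.07 and 0.05 for gilt P139. Both estimates were below 0 in all 15 settings tried, from -2.03 to -0.01 for EFHD1 and from -3.50 to -0.62 for SCIN, and each value nearest to 0 was reached with gilt P139 kept and another pregnant gilt left out.

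Markers of other cell types differed between the same BV libraries. On the joint scale the 8 smooth muscle markers summed to 7434, 6802, 9553 and 20871 CPM in cyclic gilts C128, C40, C42 and C78, and to 1780, 3201 and 1982 CPM in pregnant gilts P39, P41 and P43. Pregnant gilt P139 had 8154 CPM, within the cyclic range. All 8 had a negative log2 fold change in BV (median -1.49), 0 of them called by edgeR's quasi-likelihood test and 5 with a raw p under 0.05, and none had 0 counts in a BV library. The 12 epithelial markers summed to 57.0, 85.4, 15.4 and 73.5 CPM in cyclic BV and 518, 351, 240 and 272 CPM in pregnant BV (P139, P39, P41 and P43). Of 10 that were detectable in BV, 10 had a positive log2 fold change (median 2.95) and 2 were called. KRT18, KRT19, CLDN4, ELF3 and ESRP1 had 0 counts in at least 1 cyclic BV library and in no pregnant one. Endothelial markers summed to between 1638 and 3211 CPM in cyclic BV and between 1970 and 3256 CPM in pregnant BV, and leukocyte markers to 82.2 CPM in gilt P139 against 270 to 306 CPM in the other pregnant gilts. Fibroblast markers summed to 93757, 63861, 67643 and 26329 CPM in cyclic gilts C128, C40, C42 and C78. In pregnant gilts P139, P39, P41 and P43 they summed to 31684, 46765, 78350 and 46134 CPM, so C78 and P139 were the lowest of their groups. Of these markers 1 of 7 had a positive log2 fold change in BV (median -0.22). The part of smooth muscle, epithelial, fibroblast or leukocyte RNA in the BV values of EFHD1 and SCIN was not tested.

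**Figure D3:**
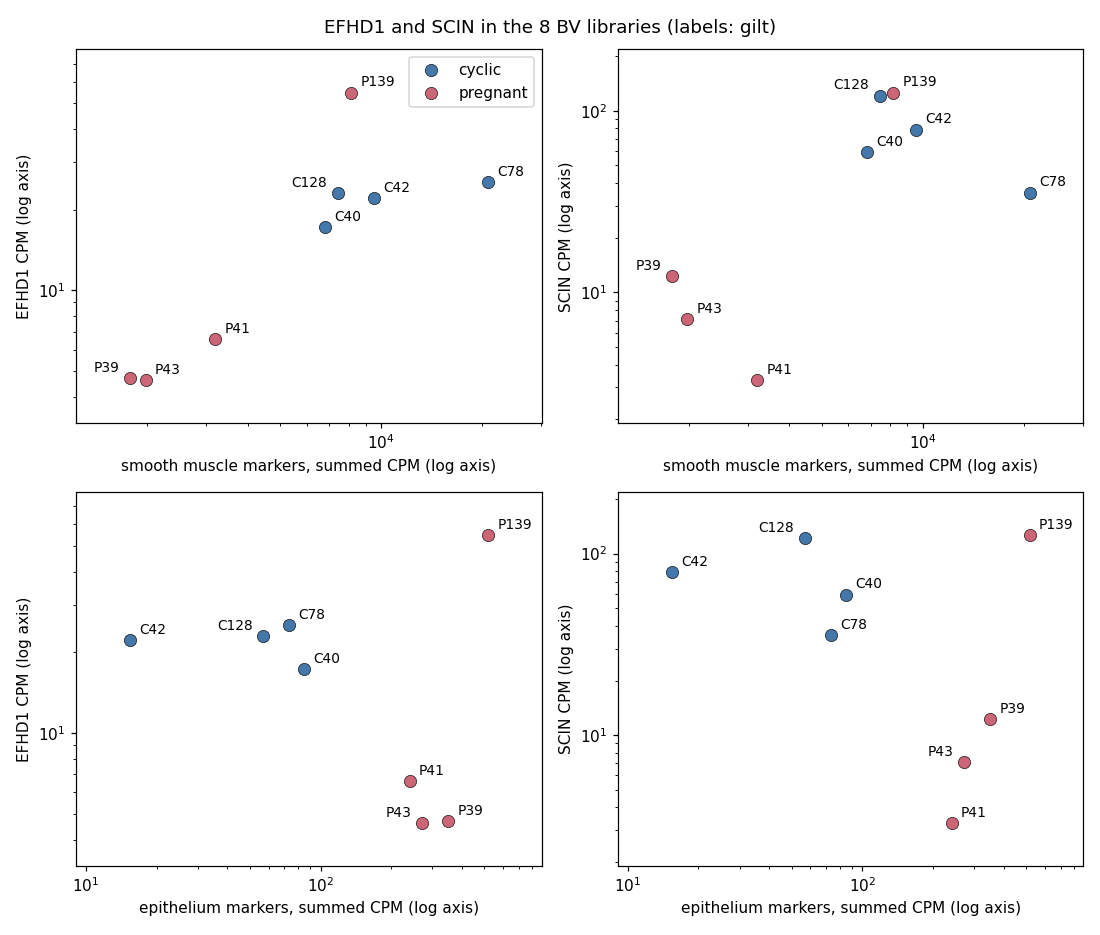
EFHD1 (left) and SCIN (right) in the 8 BV libraries, in CPM (y axes, log scale), against the summed CPM of smooth muscle markers (top, x axis, log scale) and of epithelial markers (bottom, x axis, log scale). Each point is a gilt, labelled by its name, cyclic in blue and pregnant in red. Pregnant gilts P39, P41 and P43 are low in both genes and in smooth muscle markers, whereas pregnant gilt P139 has 54.6 CPM of EFHD1 and 126 CPM of SCIN at a smooth muscle sum of 8154 CPM.

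The size of the pregnancy effect was set side by side between compartments in a joint fit of all 31 libraries with the gilt as a block, without a test. Of 60 differences, 6 pairs of compartments for each of 10 genes, 13 were larger than 2 standard errors. The share of all jointly fitted genes beyond that limit was not computed, and the 10 genes were selected on these effects. The count is therefore a description and cannot be read as high or low. The effect on SLC46A3 was larger in LE, by 1.78 (SE 0.43) over GE, 1.64 (SE 0.42) over BV and 1.47 (SE 0.42) over S on the log2 scale. That on EFHD1 was larger in LE by 2.77 (SE 0.94) over GE, 5.06 (SE 0.93) over BV and 3.09 (SE 0.96) over S. The effect on SCIN exceeded that in BV by 4.83 (SE 1.25) for LE, 4.46 (SE 1.42) for GE and 3.55 (SE 1.31) for S. For EFHD1 the corresponding differences from BV were 2.29 (SE 0.91) for GE and 1.97 (SE 0.92) for S. In this joint fit the BV effects themselves were -1.84 (SE 0.90) for SCIN and -0.75 (SE 0.63) for EFHD1. The fit of BV alone gave -1.01 and -0.33, so the differences from BV are not those of the fold changes printed above. The cause of that shift was not tested. For ATG2A, LE exceeded GE by 0.68 (SE 0.30) and S by 0.70 (SE 0.29). FAM53B, MOCS1, PIK3IP1, RNF152, ZDBF2 and COQ8A had no difference beyond 2 standard errors. For FAM53B the differences were at most 0.25, with standard errors of 0.35 to 0.44. For MOCS1 they reached 1.58 (SE 0.81), so an unequal response could not be told from an equal one at this spread.

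The levels of the genes between compartments, averaged over cyclic and pregnant gilts, were tested with edgeR's quasi-likelihood test in that joint fit at a Benjamini-Hochberg false discovery rate of 1% over 9727 genes. RNF152 differed in every pair. It was higher in LE than in GE by 5.61 (SE 0.27, edgeR adjusted p = 6.19e-12), than in BV by 3.76 (SE 0.22) and than in S by 2.90 (SE 0.22) on the log2 scale, and lower in GE than in BV by 1.85 (SE 0.24) and than in S by 2.71 (SE 0.24). The smallest step, BV below S by 0.86 (SE 0.21, edgeR adjusted p = 0.0079), was lost when any gilt but P39 was left out, at values of -0.93 to -0.70. The order was LE, S, BV and GE from high to low.

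MOCS1 had higher levels in the epithelia. GE and LE did not differ by more than their spread (-0.45 for LE minus GE, SE 0.33), nor did BV and S (-0.11, SE 0.39). It was higher in LE than in BV by 3.17 (SE 0.37, edgeR adjusted p = 3.02e-07) and than in S by 3.06 (SE 0.36), and higher in GE than in BV by 3.62 (SE 0.38) and than in S by 3.51 (SE 0.37). ZDBF2 was the opposite, lower in LE than in BV by 3.04 (SE 0.53, edgeR adjusted p = 4.43e-05) and than in S by 3.69 (SE 0.54), and lower in GE than in BV by 2.84 (SE 0.54) and than in S by 3.48 (SE 0.55). In pregnant gilts alone its differences of LE and GE from BV were -2.002 and -2.004 and were not called.

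SCIN was higher in LE than in GE by 3.60 (SE 0.71, edgeR adjusted p = 2.56e-04) and than in S by 2.79 (SE 0.63), and lower in GE than in BV by 2.399 (SE 0.73, edgeR adjusted p = 0.00666). The last difference was lost without gilt C128, C42, P43 or P139 and was -0.17 in pregnant gilts alone, and that of LE from S was lost in cyclic gilts alone (2.15). EFHD1 differed in no pair when both groups were averaged, and its order turned with pregnancy. In cyclic gilts alone it was 2.63 lower in LE than in BV, and in pregnant gilts alone 2.43 higher on the log2 scale. On the joint CPM scale EFHD1 was 4.21 ± 5.63 (SD, n = 4) in cyclic LE and 23.7 ± 3.78 (SD, n = 4) in cyclic BV, and 79.9 ± 29.5 (SD, n = 4) in pregnant LE and 19.1 ± 26.8 (SD, n = 4) in pregnant BV.

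PIK3IP1 was higher in GE than in BV by 1.27 (SE 0.25) and than in S by 1.81 (SE 0.26), and in LE than in S by 1.16 (SE 0.25). The GE and BV difference was lost in cyclic gilts alone (0.90) and the LE and S difference in pregnant gilts alone (1.01). COQ8A was lower in LE than in GE by 1.14 (SE 0.21, edgeR adjusted p = 1.04e-04), than in BV by 0.94 (SE 0.20) and than in S by 0.74 (SE 0.20). The difference from S was lost without gilt P43 (-0.71) and in cyclic (-0.95) or pregnant (-0.53) gilts alone, and that from BV in pregnant gilts alone (-0.67). ATG2A was higher than in BV by 0.78 (SE 0.15) in LE and 0.71 (SE 0.15) in GE, the former lost in cyclic gilts alone (0.52) and the latter in pregnant gilts alone (0.63). SLC46A3 was higher in LE than in BV by 0.68 (SE 0.21, edgeR adjusted p = 0.0085), a call lost without any of gilts C128, C42, C78, P139, P39 or P41, and in cyclic gilts alone this difference was -0.14. FAM53B was not called in any pair, with differences between -0.20 and 0.53. Its GE and S difference (0.53, edgeR adjusted p = 0.0144) was called without a filter (0.62), without the gilt block (0.52) and without gilt C78 (0.57). That of BV and S was called without gilt P139 (0.65). In all, 3 of the 10 genes were called between LE and GE, 6 between LE and BV, 6 between LE and S, 6 between GE and BV, 4 between GE and S and 1 between BV and S, where 38%, 48.4%, 50.7%, 55.1%, 56.1% and 7.01% of all genes were called. These shares were near those of all genes.

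**Figure D4:**
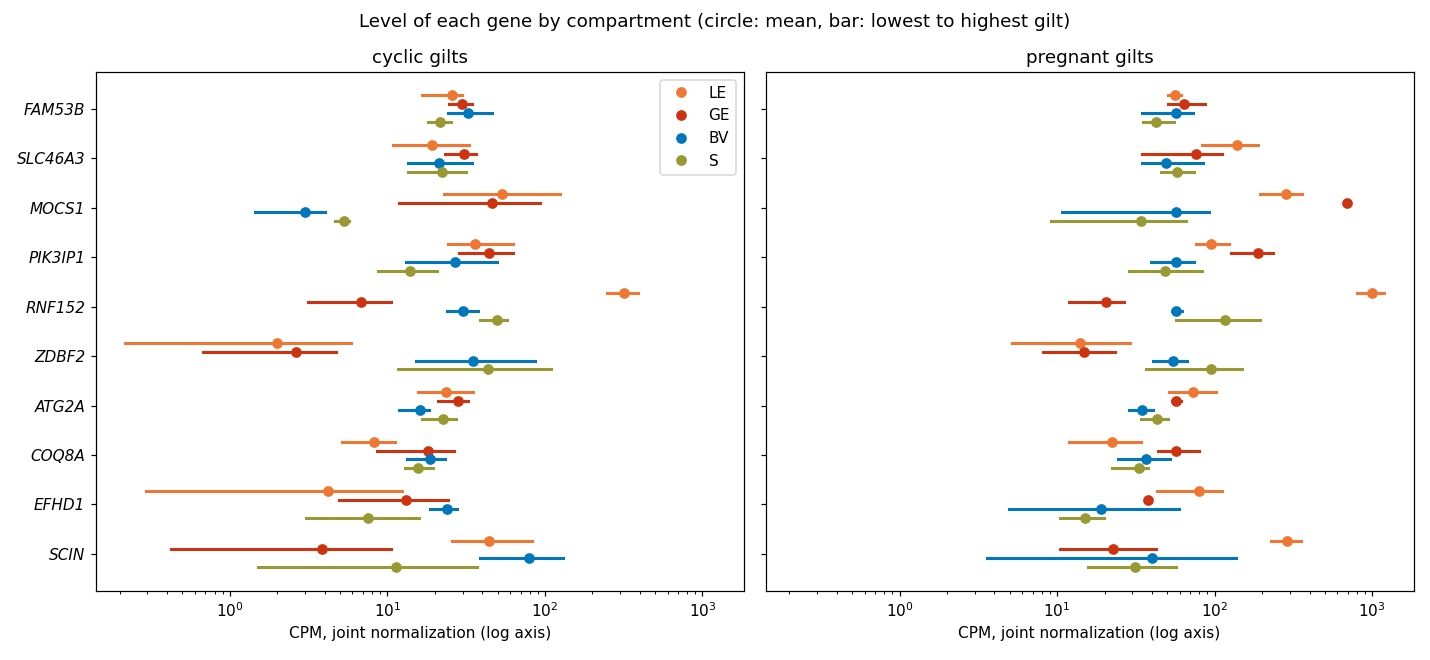
Level of each gene in CPM after joint normalization (x axes, log scale) in cyclic (left) and pregnant (right) gilts, with a circle at the mean and a bar from the lowest to the highest gilt for LE, GE, BV and S. RNF152 has its highest level in LE and its lowest in GE in both groups, MOCS1 is higher in LE and GE, and EFHD1 in LE changes from a mean of 4.21 to 79.9 CPM.

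Because all detectable epithelial markers had positive fold changes in BV and S, the level of each gene was also set against its LE level in the same gilt. The summed epithelial markers in BV amounted to 0.416% to 2.69% of those in LE in cyclic gilts and to 15.3%, 11.3%, 6.79% and 7.94% in pregnant gilts P139, P39, P41 and P43. In S they amounted to 0.410% to 5.998% in cyclic and 1.69% to 18.9% in pregnant gilts. FAM53B, SLC46A3, PIK3IP1, ZDBF2, ATG2A and COQ8A exceeded the share of the markers in every gilt in BV and in S. Their lowest values in pregnant gilts were 20.8% for SLC46A3 in BV and 28.8% for SLC46A3 in S.

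RNF152, SCIN, EFHD1 and MOCS1 did not exceed the markers throughout. RNF152 in pregnant BV was 6.38%, 4.54%, 7.17% and 5.24% of its LE level in gilts P139, P39, P41 and P43, above the markers in gilt P41 only, whereas it exceeded them in all 4 cyclic gilts. SCIN in pregnant BV was 4.46%, 1.57% and 2.16% of its LE level in gilts P39, P41 and P43, below the markers, and 49.3% in gilt P139, above them. In cyclic BV SCIN lay between 47.2% and 507% of its LE level. EFHD1 in pregnant BV was 53.5%, 5.33%, 16.6% and 7.07% of its LE level in gilts P139, P39, P41 and P43, above the markers in gilts P139 and P41. MOCS1 in pregnant BV was 25.7%, 29.7%, 5.52% and 16.6%, above the markers in 3 of 4 gilts, and in S it exceeded them in 3 of 4 cyclic and 2 of 4 pregnant gilts. In pregnant S, SCIN exceeded the markers in 2 of 4 gilts and RNF152 in 3 of 4, while both did so in all 4 cyclic gilts, and EFHD1 did in all gilts.

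GE, where MOCS1 was highest in pregnancy, gave another picture for this gene. In pregnant BV it was at 13.8%, 9.22% and 8.49% of its GE level in gilts P139, P39 and P43, and the markers were at 22.7%, 11.8% and 9.62%, so it exceeded them in 0 of 3 gilts, against 4 of 4 cyclic gilts. In S it exceeded them in 1 of 3 pregnant and 3 of 4 cyclic gilts. The other 9 genes exceeded the markers in every gilt when set against GE. In S all 12 epithelial markers had counts in every pregnant library, and 11 of 11 detectable ones had a positive log2 fold change (median 1.26, with 0 called by edgeR's quasi-likelihood test and 3 at a raw p under 0.05). The part of epithelial RNA in the BV and S values was not tested.

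**Figure D5:**
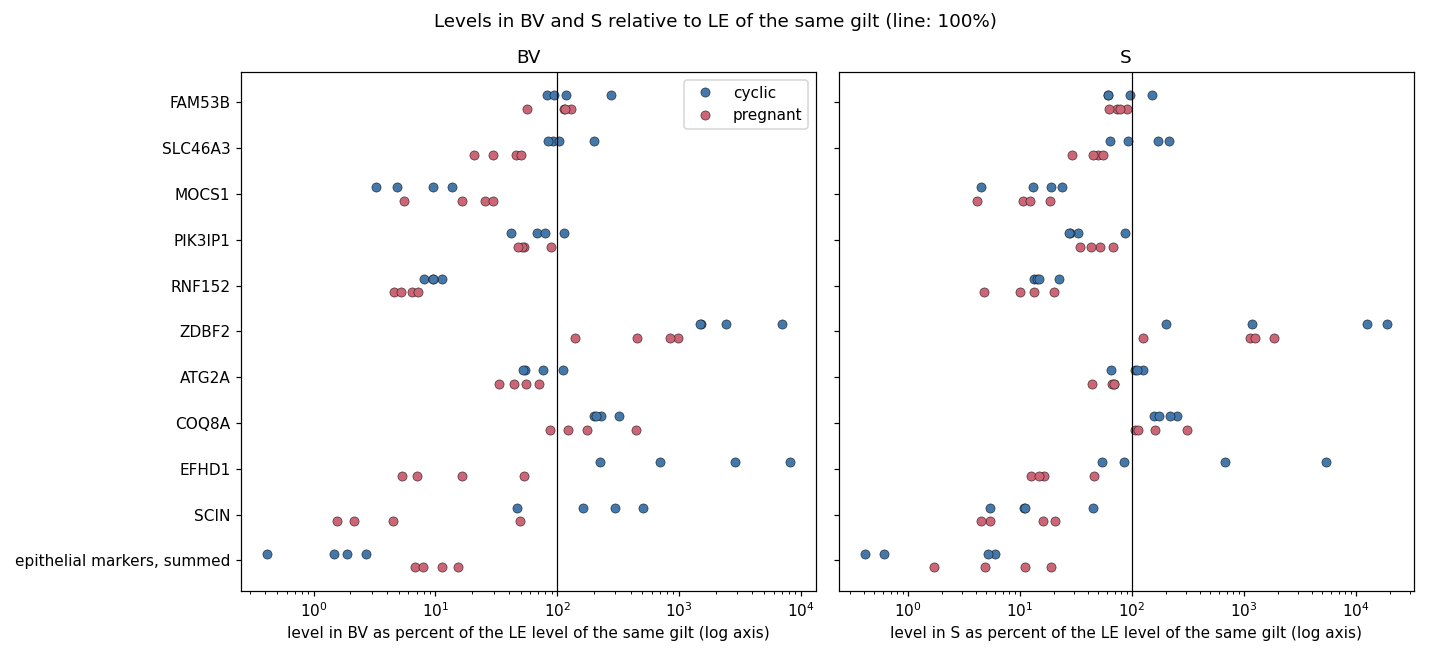
Level of each gene and of the summed epithelial markers in BV (left) and S (right) as a percentage of the LE level of the same gilt (x axes, log scale), cyclic in blue and pregnant in red, with a line at 100%. Epithelial markers in BV lie below 2.69% in cyclic gilts and between 6.79% and 15.3% in pregnant gilts, and RNF152, SCIN, EFHD1 and MOCS1 have pregnant BV points within or below that range.

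The sequence of 250 bases before the annotated start of each gene was read from Sscrofa11.1 and searched on both strands for CACGTG (an E-box), GTAAACA (the word of FOXO proteins), AGAACA (bound by progesterone and glucocorticoid receptors) and AGGTCA (bound by other nuclear receptors). AGAACA was found before PIK3IP1 and ZDBF2, 2 of 10 genes, and in 10.6% of 20653 such windows of protein-coding genes. AGGTCA was found before RNF152, at 2 places and in 1 of 10 genes, and in 12.3% of all windows. CACGTG and GTAAACA were found in 0 of 10 windows, against 6.16% and 2.31% of all. A match is a description of letters only, and the start is that of the NCBI gene model. The windows of EFHD1 and SCIN are shown because the fitted fold changes of these genes had opposite signs in LE and BV, and those of RNF152 and PIK3IP1 because they hold a match, in capitals. The window of ZDBF2, which also holds one, is not shown, and it overlaps an annotated exon, as does that of FAM53B. They are written 5′ to 3′ on the strand of the gene: EFHD1 on chr15:133119842-133120091 (plus), SCIN on chr9:82103021-82103270 (plus), RNF152 on chr1:159529629-159529878 (plus) and PIK3IP1 on chr14:48051661-48051910 (minus). GC made up 60.0%, 52.4%, 48.4% and 41.2% of them, with a median of 57.2% over all windows.
EFHD1: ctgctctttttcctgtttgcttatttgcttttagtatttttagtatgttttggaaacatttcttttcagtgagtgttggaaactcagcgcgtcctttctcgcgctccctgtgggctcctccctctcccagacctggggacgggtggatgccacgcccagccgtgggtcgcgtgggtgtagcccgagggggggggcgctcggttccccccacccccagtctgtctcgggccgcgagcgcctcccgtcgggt
SCIN: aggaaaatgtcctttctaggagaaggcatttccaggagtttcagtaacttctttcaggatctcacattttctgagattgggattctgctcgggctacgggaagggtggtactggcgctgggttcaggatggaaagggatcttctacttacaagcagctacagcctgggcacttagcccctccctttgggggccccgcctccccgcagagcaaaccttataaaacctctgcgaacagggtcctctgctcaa
RNF152: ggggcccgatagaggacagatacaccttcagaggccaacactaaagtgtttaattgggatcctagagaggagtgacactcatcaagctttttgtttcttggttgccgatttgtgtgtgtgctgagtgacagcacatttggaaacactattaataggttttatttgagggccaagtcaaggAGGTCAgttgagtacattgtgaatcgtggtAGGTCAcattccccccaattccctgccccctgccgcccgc
PIK3IP1: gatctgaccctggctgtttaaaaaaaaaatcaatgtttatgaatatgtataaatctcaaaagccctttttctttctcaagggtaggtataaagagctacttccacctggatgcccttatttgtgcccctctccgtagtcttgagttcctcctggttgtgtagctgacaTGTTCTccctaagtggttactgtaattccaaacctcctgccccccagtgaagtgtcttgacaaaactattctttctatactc

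Other genes of these pathways were counted in the same fits. Over 7 lists without the paralogues, edgeR's quasi-likelihood test called 6 changes. Of all genes it called 3.32%, 0.748%, 1.86% and 0.293% in either direction in LE, GE, BV and S. The called share of the lists as a whole was not computed, so the 6 calls are not read as few or many. For the robust GLM and DESeq2, no share of all genes in either direction is set beside the list calls below. Of the autophagy genes, 2 of 30 detectable were called higher in LE, with 1 of 29 in BV and 0 of 30 in both GE and S, with 29 changes at a raw p under 0.05 and 8 calls by the robust GLM and 10 by DESeq2 over the 4 compartments. WDR45, which works with ATG2A in autophagosome formation, rose in LE from 13.4 ± 1.79 to 28.8 ± 3.76 CPM (SD), with an edgeR adjusted p of 0.0075. MAP1LC3B, the protein that coats autophagosomes, rose in LE by 0.82 (SE 0.14, edgeR adjusted p = 0.00781), and SQSTM1, a cargo receptor, rose in BV by 0.92 (SE 0.14, edgeR adjusted p = 0.014) on the log2 scale. The median log2 fold change of the autophagy list was 0.20, 0.21, 0.25 and 0.14 in these compartments.

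Of the PI3K and mTORC1 genes, 1 of 36 detectable was called in LE, with 1 of 33 in BV and 0 of 35 in both GE and S, while 34 changes had a raw p under 0.05 and the robust GLM made 14 calls and DESeq2 13. PIK3R1, a regulatory subunit of PI3K, rose in LE by 1.03 (SE 0.18, edgeR adjusted p = 0.00871), and IRS2, an adaptor of the insulin receptor, rose in BV from 12.6 ± 5.66 to 46.0 ± 12.2 CPM (SD), a log2 fold change of 1.88 (SE 0.34, edgeR adjusted p = 0.0166). Of the other genes of the molybdenum cofactor pathway, GPHN, which acts at its last steps, fell in GE by 1.22 (SE 0.20, edgeR adjusted p = 0.0424). There MOCS1 had a log2 fold change of 3.86 (SE 0.63). None of 9 to 10 detectable genes of this list was called higher in any compartment. Of the coenzyme Q genes (9 to 11 detectable), gelsolin family genes (5 to 6), mitochondrial calcium genes (11) and imprinted genes (10 to 14), 0 were called in any compartment by edgeR's quasi-likelihood test. At a raw p under 0.05 there were 9, 10, 5 and 13 changes over the 4 compartments, with the robust GLM 0, 1, 2 and 8 calls and with DESeq2 0, 2, 2 and 4. Median log2 fold changes of the coenzyme Q list were negative in all 4 compartments (-0.46 to -0.16), unlike those of COQ8A. Changes smaller than those called may not be detectable at this depth and spread.

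Of the paralogues, 0 were called with edgeR's quasi-likelihood method, with 8 changes at a raw p under 0.05 and 2 calls each by the robust GLM and DESeq2. ATG2B had log2 fold changes of 0.12, 0.58, 0.32 and -0.04 in LE, GE, BV and S, COQ8B 0.43, 0.12, 0.81 and 0.43, and EFHD2 -0.04, 0.51, 0.08 and -0.15. FAM53C had -0.51, 0.03, 0.24 and 0.04, SLC46A1 -0.53, -0.13, 0.38 and -0.04, and GSN, gelsolin itself, -0.62, -0.86, -0.10 and 0.19. RNF186 was detectable in LE alone (3.14, SE 0.90) and SLC46A2 in LE (-1.53, SE 0.85), GE (-0.06, SE 0.63) and BV (2.61, SE 0.66). These values of RNF186 in LE and SLC46A2 in BV were called by the robust GLM. RNF183 had -0.23 in LE and 0.93 in GE, and FAM53A 0.20 in GE. The listed genes are each a single gene model, so reads shared with paralogues were not separated further.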

How the data were processed

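Whole counts of reads per NCBI gene were made by the authors, who used Trim Galore for trimming, Hisat2 for alignment to the Sscrofa11.1 genome, nudup for removal of duplicates and QuasR for counting. Tool versions are not given in the sources used here. The deposited full tables and the tables filtered by a minimum CPM, whose value is not stated, hold unnormalized counts. Gene symbols and starts were taken from the NCBI annotation.

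Counts were fitted within a compartment with edgeR 4.0.16 in R 4.3.3 (TMM, quasi-likelihood F test), with edgeR's robust GLM and DESeq2 1.42.0 beside it. The standard error is the coefficient divided by the root of F. Genes detectable in all 4 compartments were fitted jointly with the gilt as a block, because each gilt gave every compartment. Deviations from the group means of a gilt's libraries correlated over 0.1 in 34 of 45 pairs (median 0.17). Cyclic and pregnant gilts are different animals and are not paired. Nothing in the labels says whether gilts were handled in batches. No libraries agreed within sampling noise (lowest chi-square per degree of freedom 6.97). The fits were tested on simulated data. Library totals of 2415216 to 7081556 counts limit the precision for genes of few counts.

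The genes and lists were chosen with earlier results of these data known. Named are all 10 genes, up to 3 called genes of each pathway list, every measured paralogue, and the 3 genes most correlated with EFHD1 and with SCIN. Marker and pathway symbols VMP1, PIK3R3 and H19 had no match.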

Additional observations from a re-analysis of the deposited data

Results flagged for a closer look

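A library lay far from the other 3 of its group at 8 of 70 combinations of gene, compartment and group with 4 libraries. The combinations share gilts and libraries, so no rate by chance is set beside this count. Pregnant gilt P139 in BV had 54.6 CPM of EFHD1, with the next value at 6.59 CPM, and 125.9 CPM of SCIN, with the next value at 12.3 CPM. Cyclic gilt C78 had 127.8 CPM of MOCS1 in LE (next 35.4 CPM), 5.99 CPM of ZDBF2 in LE (next 1.06 CPM), 79.1 CPM of ZDBF2 in BV (next 19.98 CPM) and 34.5 CPM of SCIN in S (next 4.13 CPM). Pregnant gilt P43 had 78.6 CPM of SLC46A3 in BV (next 36.3 CPM). Pregnant gilt P41 had 21.3 CPM of COQ8A in S, below the next value of 33.7 CPM.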

How the results depend on the processing

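The fitted log2 fold changes of FAM53B, SLC46A3, MOCS1, PIK3IP1, RNF152, ZDBF2, ATG2A and COQ8A were positive in every compartment under all 14 or 15 settings, and those of EFHD1 and SCIN in BV were negative under all 15. The counts of genes called higher did depend on the test: DESeq2 called 9 in LE, 7 in GE and 7 in S, and the robust GLM 8 in BV and 10 in each of LE, GE and S. Without a filter 2 were called in S. Leaving out 1 library gave 2 to 8 in LE (2 without gilt C40 or C42, 8 without C78), 0 to 2 in GE (0 without C42 or P139), 1 to 3 in BV (1 without C128, C40, C42, P139, P41 or P43) and 0 to 2 in S (2 without P39). The calls over all genes also moved in these fits, to 221 to 422 in LE, 38 to 110 in GE, 77 to 231 in BV and 12 to 52 in S. Without gilts C78 and P139 together, a setting chosen after seeing the data, 1 was called in S, 4 in BV, 7 in LE and 0 in GE. The pathway lists gave 33 calls with DESeq2 and 35 with the robust GLM in place of 6, with no share of all genes in either direction beside the first 2 counts. The cause of these shifts was not tested.

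For levels between BV and S, 0 genes were called without a filter, in cyclic gilts only and in pregnant gilts only, and 0 to 1 when a gilt was left out. Between GE and BV 3 were called in pregnant gilts only. The LE minus BV difference turned for SLC46A3 in cyclic gilts only (-0.14) and for EFHD1 in pregnant gilts only (2.43). Of the single level differences, 35 lost and 11 gained a call and 732 kept their side. Without the replicate block (the pairing by gilt) the median absolute difference of pregnancy effects between compartments was 0.52 in place of 0.49, and the calls of SLC46A3 for LE minus BV and FAM53B for GE minus S changed sides (0.69 and 0.52). With 3 or 4 gilts in a group and as few as 33 counts over 4 libraries (ZDBF2 in cyclic LE), small changes could not be detected.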

Other observations

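Over all 31 libraries and 9727 genes, the log2 CPM of EFHD1 had its highest Pearson correlations with FOXP1 (r = 0.79), WNK1 (r = 0.74) and ITGAV (r = 0.73), and that of SCIN with CNNM2 (r = 0.83), CLASP1 (r = 0.82) and STAC (r = 0.80). These values are a description without a test, and the libraries share gilts, compartments and pregnancy.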
